A study of Mus musculus with 46 samples.

Results

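Late NanogBiD cells, the D10 and D12 cultures on the way from mouse embryonic fibroblasts (MEF) to induced pluripotent stem cells (iPSC), were set against mouse embryonic stem cells (mES) gene by gene, to ask what of the mES profile was still missing and what was still in excess. A gene was a member when all 4 late libraries, 2 of D10 and 2 of D12, lay on the same side of the mES library by at least 2-fold. The scale was log2(FPKM + 1), where FPKM is the number of sequenced fragments per kilobase of transcript, scaled to sequencing depth. Of the 37108 genes in the table, 15835 reached 1 FPKM in at least 1 of these 5 libraries and were compared. Below mES lay 779 genes (4.92%) and above it 1707 (10.8%), which gave 2486 members. The mES group had 1 library, so these differences carry no p-value, and any deviation of that library enters all of them.

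The study reprogrammed MEF with retroviral Oct4 together with NanogBiD, which is Nanog fused to an N-terminal piece of the BAF subunit SS18 and is called NanogN70 in the labels, or with native Nanog (NanogWT). Cells were harvested from D0 to D12. MEF came from embryos of OG2 males, which carry an Oct4-GFP reporter, and females of the 129 strain, and embryos of both sexes were used. The mES were derived from OG2 mice and kept without feeders in N2B27 with the inhibitors PD0325901 (of MEK) and CHIR99021 (of GSK3) and the cytokine LIF. The reprogramming cultures were in iCD3 medium to about D7 and in the mES medium after that, so the late cells and mES shared a medium but not a mouse background. No sort for GFP is described in the sources used here, so a late library may hold cells at several stages, and in bulk RNA fewer cells of a type and less RNA per cell cannot be told apart. Nothing in the labels says that replicates were separate cultures.

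Naive pluripotency, the state of the early epiblast that mES hold in this medium, rests on a network of transcription factors (Oct4, Sox2, Nanog, Esrrb, Klf4, Tfcp2l1) fed by LIF and by Wnt signalling. Fibroblasts instead express collagens, contractile proteins and the Hox genes of their place along the body axis. Reprogramming has to shut the fibroblast program and open the naive one, and cells that leave pluripotency in medium without serum can enter the neural lineage.

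The 4 late libraries had a relative depth of 0.885 to 1.00, read from the spacing of low values, and mES 0.978. Their total FPKM was 394371 to 421489 against 464974 in mES, and 13910 to 14431 genes reached 1 FPKM against 12960. Replicates correlated across the compared genes at r = 0.978 (D10) and 0.974 (D12), and 329 genes (2.08%) and 368 genes (2.32%) were 2-fold apart between them. Across the same genes, r with mES was 0.869 and 0.832 at D10 and 0.876 and 0.830 at D12 (replicates 1 and 2), against 0.718 and 0.723 for the MEF libraries. Replicate 1 was the nearer one at both days. It also had the higher summed level of 10 mES markers (2206 and 3242 FPKM, against 1359 and 1859 in replicate 2 and 4852 in mES) and the lower sum of 5 neural markers (252 and 374 FPKM, against 398 and 520, with 26.2 in mES). Of 10 MEF markers 7 were above mES, with sums of 299 to 577 FPKM against 7.55 in mES and 5737 and 6712 in MEF, and Dpt was under 1 FPKM in every late library. What part these differences have in the results was not tested. Of 5 macrophage markers Ptprc, Adgre1, Csf1r and Tyrobp stayed under 1 FPKM and Cd68 was at 2.72 to 6.35 against 7.56 in mES. The summed endothelial markers were at 7.35 to 28.2 FPKM against 48.5, mostly Pecam1, and the trophoblast markers at 2.01 to 6.29 against 4.34. Markers of primitive endoderm (Gata6, Gata4, Sox17, Sox7, Foxa2) and of muscle and fat (Myod1, Myog, Adipoq, Plin1) stayed under 1 FPKM in all 4 late libraries. The median difference of all compared genes to mES was 0.10 (log2), 0.28 when libraries were scaled to a common total (TPM) and -0.02 after quantile normalization. Under none of the alternative settings did a member move to the other side of mES.

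**Figure D1:**
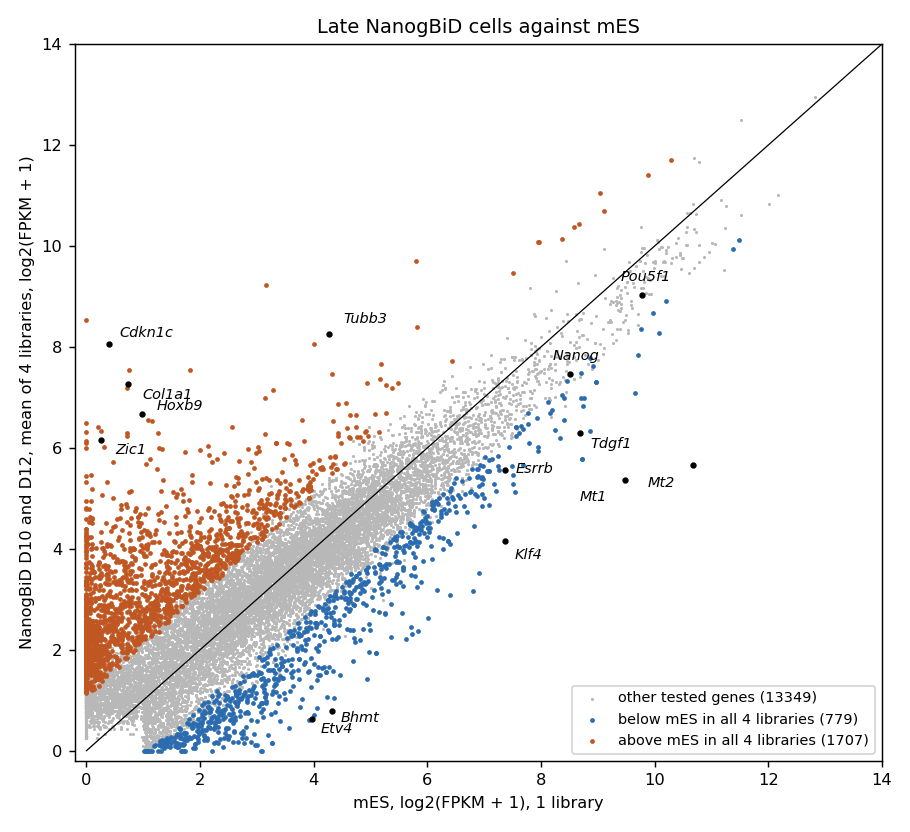
Each point is a gene, with its level in mES (1 library) on the x axis and the mean of the 4 late NanogBiD libraries on the y axis, both as log2(FPKM + 1). The 779 genes below mES are blue, the 1707 above are orange, other compared genes are grey and the labelled genes black; Nanog and Pou5f1 lie among the genes that are no members.

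The factors of the vectors were not members. Nanog stood at 200 and 128 FPKM at D10 and 223 and 162 at D12 against 365 in mES. Pou5f1 (Oct4) was at 667, 434, 613 and 414 FPKM, in the same order, against 877, and Ss18 at 51.9, 45.7, 54.3 and 44.0 against 41.0. These values do not part vector from endogenous transcripts. Sox2, which no vector carried, was at 200, 177, 266 and 212 FPKM against 248 in mES, so it lay within 2-fold in every library. Below, 4 late values are always given in the order D10 replicates 1 and 2, D12 replicates 1 and 2.

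What was missing was mostly reduced rather than absent. Of the 779 genes below mES, 187 were under 1 FPKM in all 4 late libraries, and 17 of these were listed at 0 in all 4; the other 592 were partly expressed. The median of the weakest of the 4 differences was 1.30 on the log2 scale, 593 genes were no more than 3-fold below mES in their nearest library, and 11 were over 8-fold below. With 1 FPKM added, the level in mES limits how far below a gene can lie. In mES 199 of the 779 were under 5 FPKM and so could not be 8-fold below. At a limit of 4-fold 74 genes remained (0.467% of those compared). MEF had 110 of the 779 within 2-fold of mES or above it. For 543 genes the late level was within 2-fold of the MEF mean, for 180 it was at least 2-fold over MEF, and for 56 at least 2-fold under it. With 1 FPKM added, genes near 0 on both sides count as within 2-fold. Bhmt, for example, was listed at 0 in MEF and at 0.532 to 0.846 FPKM in the late libraries. Among 1190 genes that mES expressed at 4 or more times the MEF level, a set that rests on the same mES library, 386 (32.4%) were still below mES and 792 were no members.

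The metallothioneins Mt2 and Mt1, small proteins that bind zinc and other metals, led the missing genes. Mt2 (chr8:94172618-94173567, GRCm38.p6) stood at 81.2, 45.2, 45.8 and 35.6 FPKM against 1633 in mES, and Mt1 (chr8:94178883-94180327) at 56.2, 33.8, 43.6 and 32.0 against 710. The log2 difference of the late mean to mES was -5.02 for Mt2 (-5.48 to -4.31 over the 4 libraries) and -4.10 for Mt1 (-4.43 to -3.64). Every late library lay more than 8-fold under mES for both genes, at about the level of MEF (48.6 and 17.7 FPKM for Mt2, 87.6 and 52.1 for Mt1). In a list of metallothionein and zinc transport genes chosen after values had been seen, 4 of 20 were below mES and 4 above. The zinc exporter Slc30a2 (0.535, 0.796, 1.41 and 1.56 FPKM against 12.9) and the zinc importer Slc39a4 (4.48, 1.48, 8.27 and 5.10 against 24.9) were also below. Mtf1, the factor that turns on metallothioneins when zinc enters the cell, was at 4.45 to 5.03 FPKM against 5.87 and was no member. Mtf1 binds metal response elements with the core TGCACNC or TGCGCNC, and 250 bases before the start sites in the RefSeq promoter table are shown for both genes because they hold this core; for Mt1 that start lies inside the gene interval given above, so most of its window overlaps the gene (capitals mark each match on either strand; sequences from RefSeq, GRCm38.p6, plus strand).
Mt2, chr8:94172368-94172617: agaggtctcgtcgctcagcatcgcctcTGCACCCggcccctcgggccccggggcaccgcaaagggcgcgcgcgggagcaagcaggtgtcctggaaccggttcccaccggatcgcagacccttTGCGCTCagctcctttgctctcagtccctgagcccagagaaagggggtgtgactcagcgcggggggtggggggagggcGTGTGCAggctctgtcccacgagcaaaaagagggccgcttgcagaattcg
Mt1, chr8:94178839-94179088: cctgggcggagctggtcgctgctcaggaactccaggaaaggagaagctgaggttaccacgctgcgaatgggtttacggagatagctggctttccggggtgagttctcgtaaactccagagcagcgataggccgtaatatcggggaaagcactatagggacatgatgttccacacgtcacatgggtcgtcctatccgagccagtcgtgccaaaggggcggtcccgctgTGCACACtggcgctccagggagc
The Mt2 window held 3 cores and the Mt1 window 1. At least 1 core was found in 31.1% of the 528 missing genes that have a RefSeq promoter. The share was 35.0% of 1142 genes in excess and 34% of all 11328 compared genes with such a promoter. Counted over windows of 250 bases, the shares were close in the 3 groups. At least 3 cores were found in 2.44% of the promoters of compared genes. A match of these letters is not evidence of a bound site.

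Among 18 naive pluripotency factors 6 were below mES and none above, with a list median of -1.29 (log2), against 0.10 for all compared genes and -5.16 in MEF. The 6 were Klf4, Tbx3, Tfcp2l1, Esrrb, Klf5 and Zfp42, of which Klf4 and Tbx3 alone remained below after quantile normalization. Klf4, a target of LIF signalling and a factor of the classical reprogramming cocktail (chr4:55527137-55532475), was at 15.9, 13.7, 16.7 and 21.7 FPKM against 165 in mES. This is the MEF level (15 and 14.1 FPKM), and the log2 difference to mES was -3.22 (-3.50 to -2.87 over the late libraries). Tbx3, which sustains self-renewal downstream of LIF, was at 8.28, 5.88, 12.7 and 11 FPKM against 58.2, again near MEF (7.36 and 5.77); it overlaps another member in the annotation. Esrrb, an orphan nuclear receptor of the naive core, had left the MEF level of 0 and reached 44.6, 29.7, 66.1 and 53.2 FPKM against 163 in mES, a log2 difference of -1.79 (-2.42 to -1.29). Tfcp2l1, a further LIF target, was at 31.2, 27.3, 37.1 and 42.2 against 107. Sall4, Prdm14, Nr5a2, Nr0b1, Klf2, Tcl1 and Zfp296 were among the 12 that were no members, since at least 1 late library lay within 2-fold of mES. Klf2, for example, was at 134, 70.6, 177 and 95.2 FPKM against 344.

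Of 30 genes that act with or downstream of these factors 9 were below and 2 above. Tdgf1, the Nodal co-receptor, was at 70.9, 53.6, 93.3 and 99.2 FPKM against 408, and Gdf3, a TGF-beta family ligand, at 21.7, 11.6, 24.6 and 15.6 against 75.9. Upp1, a uridine phosphorylase (37.9, 22.6, 63.0 and 38.1 against 180), Trap1a (18.0, 10.2, 40.5 and 25.4 against 111), Spp1, Lefty2, Fgf4, Cdh1 and the glucose transporter gene Slc2a3 completed the list. In Gdf3, Upp1, Trap1a and Cdh1 replicate 2 lay under replicate 1 at both days. The 2 genes above mES were Lefty1, a Nodal antagonist, at 51.1, 24.2, 60.3 and 25.5 FPKM against 4.51, and Dppa3, a factor of the early embryo and germline, at 88.3, 56.4, 131 and 73.9 against 22.9. Lefty1 and Lefty2 are neighbouring paralogs, and whether reads were shared between them is not known.

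Outputs of Fgf and ERK signalling lay on both sides. Of 24 Nodal, Fgf and ERK feedback genes 6 were below and 3 above. Etv4, an ETS factor induced by Fgf signalling (chr11:101769747-101785310), was at 0.850, 0.627, 0.288 and 0.492 FPKM against 14.6 in mES, under both MEF libraries (3.95 and 13.8) and far under D7 (30.2 and 21.6). Its log2 difference to mES was -3.33 (-3.60 to -3.08). Spry2, a feedback inhibitor of the pathway, was at 6.77, 7.17, 8.67 and 9.94 against 32.3. On the other side, the ERK phosphatase Dusp4 stood at 24.3, 33.2, 33.4 and 51.1 FPKM against 1.48, and the receptor Fgfr2 at 7.82, 9.03, 5.48 and 5.12 against 0.0347. The LIF axis was split in the same manner, with 4 of 16 genes below, Klf4, Tfcp2l1 and Bcl3 among them, and the cytokine receptors Osmr and Il6st above. Socs3, the Stat3 feedback gene, was at 21.1, 37.1, 15.1 and 27.1 against 64.7 and was no member, and Stat3 itself was near mES (23.7 to 42.5 against 29.8).

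Amino acid response genes formed a second block of missing genes. These are targets of Atf4, which rises when amino acids run short. In a list of 37 such genes, chosen after values had been seen, 16 were below mES and 3 above, with a median of -1.08 (log2). The list median was -0.34 and -0.32 in MEF and already -1.40 and -1.36 in the NanogBiD libraries of D0. It was -1.91 to -1.30 in the NanogWT libraries of D10 and D12. In the 12 iPSC libraries it was -0.86 to -0.06, so a lower level than in mES was not particular to the late cells. Eif4ebp1, an inhibitor of cap-dependent translation, was at 85.0, 75, 100 and 64.7 FPKM against 464, a log2 difference of -2.52 (-2.82 to -2.20). Asns (asparagine synthetase) was at 107, 87.7, 150 and 112 against 423, and Slc7a5, the light chain of a leucine transporter, at 63.2, 68.8, 52.2 and 57.0 against 245. Its heavy chain partner Slc3a2 was at 24.7, 22.9, 24.4 and 23.2 against 74.3. Aars, the alanyl-tRNA synthetase, stood at 47.8, 52.4, 45.6 and 51.0 FPKM against 178, and Atf4 itself at 84.4, 93.8, 87.2 and 78.7 against 199. For Slc3a2, Aars and Atf4 the late libraries differed little from each other, whereas Asns ran from 87.7 to 150 and Eif4ebp1 from 64.7 to 100. For Slc3a2 and Atf4 MEF was nearer to mES than the late libraries were (39.8 and 30.5, and 239 and 165 FPKM). Nupr1, a stress factor under Atf4, was at 4.41, 3.14, 4.38 and 3.30 against 39.8. Slc7a11, the cystine transporter and also an Atf4 target, went the other way, at 4.41, 5.78, 4.43 and 6.41 against 0.338. In a list of serine, threonine and one-carbon enzymes the mitochondrial folate enzyme Mthfd2 was the only 1 of 19 below mES; with each chromosome's median removed the amino acid list had 14 genes below.

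The other genes that led by the weakest difference had no common list. Bhmt, which remethylates homocysteine (chr13:93616891-93637758), was at 0.846, 0.752, 0.809 and 0.532 FPKM against 18.9 and was listed at 0 in both MEF libraries. Epop, a partner of Polycomb repressive complex 2 whose row occurs under 2 symbols, was at 55.5, 53.7, 60.5 and 46.1 against 423. Cdx1, a caudal homeobox factor and Wnt target, was at 4.04, 8.78, 8.01 and 10.9 against 83.8. Tlx2, a homeobox factor (0.283 to 0.850 against 15.1), Cyp2s1, a cytochrome P450 (0.698 to 1.39 against 19.4), Nckap1l, an actin regulator of blood cells (0.252 to 0.974 against 14.1), Mymx, a muscle fusion peptide (2.57 to 6.09 against 56.1) and Nefh, a neurofilament subunit (0.388 to 1.07 against 12.5), were the rest.

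**Figure D2:**
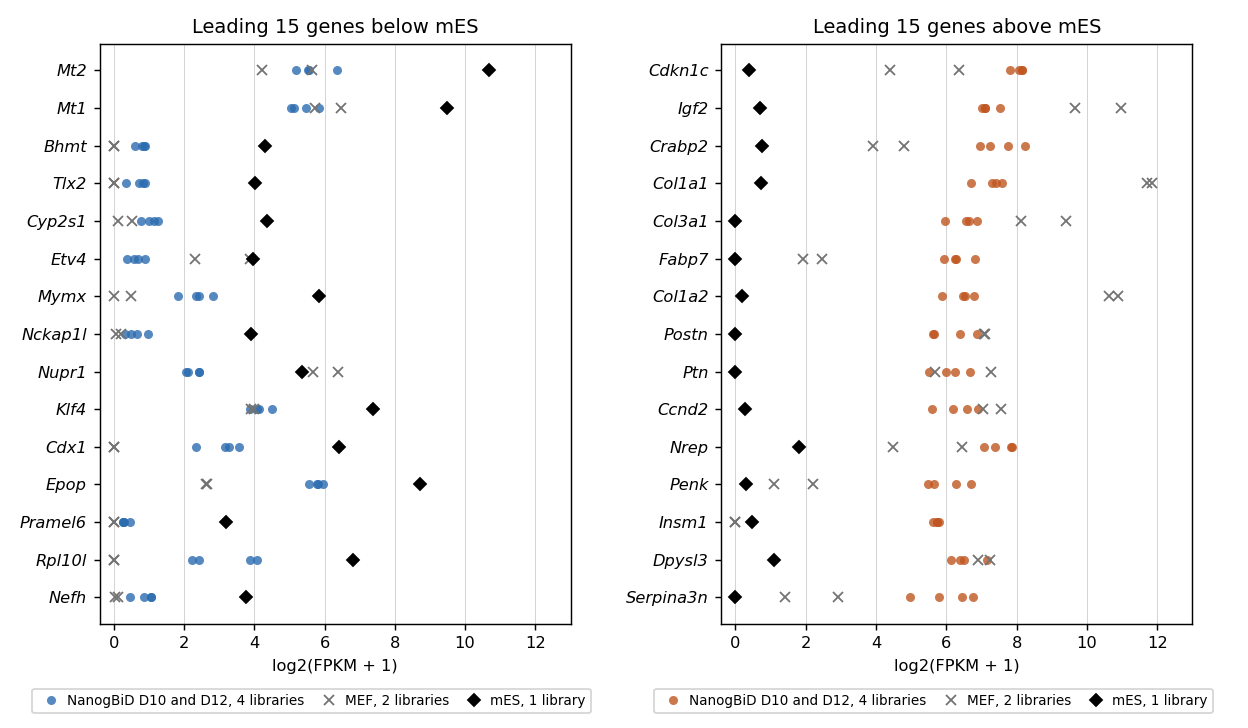
The 15 protein-coding genes without annotated overlap that had the largest weakest difference below mES (left) and above it (right), as log2(FPKM + 1); circles are the 4 late NanogBiD libraries, crosses the 2 MEF libraries and diamonds the mES library. For Klf4, Mt1 and Mt2 the late values overlap or touch those of MEF, whereas the collagen genes on the right lie between MEF and mES.

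Germline and X-linked genes gave smaller groups. Of 14 germline genes that DNA methylation silences in somatic cells, Rpl10l, Tex19.1 and Zfp42 were below and none was above. Rpl10l, a retrogene copy of a ribosomal protein gene (chr12:66283379-66284401), was at 4.35, 3.71, 16 and 13.8 FPKM against 110. Of the two-cell-stage genes Pramel6 (0.194 to 0.366 FPKM against 8.14) and Pramel7 were below, 2 of 10 in all. Among 13 X-linked Xlr and Rhox genes, a list chosen after values had been seen, 7 were below and all 7 were of the Xlr cluster, whose copies are near identical and whose values may share reads. Xlr5a was listed at 0 in both D10 libraries, was at 0.510 and 0.0769 at D12, and stood at 6.43 in mES. Rhox6 (21.5, 5.95, 19.5 and 9.71 against 0.557) and Rhox9, homeobox genes of the placenta and germline, were above. Of 7 T cell receptor complex genes, a further list chosen after values had been seen, Cd3d, Cd3g and Cd3e were below mES and the other 4 were no members. Cd3d was at 0.0891, 0, 0.252 and 0.0910 FPKM against 3.96.

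Epithelial genes were 4 below and none above out of 20. E-cadherin (Cdh1, chr8:106603350-106670247) was at 38.7, 20.7, 49.8 and 33.3 FPKM against 185, while N-cadherin (Cdh2) was at 11.4 to 22.8 against 1.28. The tight junction genes Ocln and Cldn7 and the splicing factor Esrp2 were the other 3. Epcam, Krt8 and Krt18 were no members. Some genes of other lineages were also below mES. Of 12 primitive endoderm genes Gata4, Gata6, Hnf4a and Lama1 were below, with Pdgfra and Col4a2 above. Gata4 was at 0.0913 to 0.482 FPKM against 5.59, and Lama1 was partly expressed, at 5.00 to 7.52 against 16.9. Of 13 trophoblast genes Ascl2, Tfeb and Hand1 were below and Peg10 above. Some of these lineage genes were low in mES too, with Hand1 at 1.74 FPKM, Hnf4a at 2.05, Ascl2 at 2.99 and Gata6 at 3.06, whereas Tfeb was at 10.5. With the trends in transcript length and GC content removed no trophoblast gene was below. Of 14 primed and formative genes Eomes and Tcf15 were below and 6 above, among them Sox4, Fgf15, Lef1, Sall2 and Dnmt3a.

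DNA replication, glycolysis and respiration must be read together with the chromosomes. Of 43 cell cycle genes 7 were below mES: Cdt1, Gins2, Mcm2, Gins4, Mcm5, Ccne1 and Cdc6, which load or fire replication origins or start S phase. Mcm2, a subunit of the replicative helicase, was at 81.8, 77.0, 83.2 and 67.1 FPKM against 195, and Cdt1, which loads that helicase, at 57.8, 47.7, 49.4 and 42.4 against 151. Of 21 glycolysis genes Hk2 (46.5, 36.8, 35.3 and 34.4 against 142), Slc2a3 (414, 221, 353 and 278 against 1071) and Gapdh were below; Gapdh has many pseudogene copies and its value is uncertain (338 FPKM in mES here, 109 in the transcript table). Of 84 nuclear genes whose symbols begin with Nduf, Uqc or Cox, mostly subunits or assembly factors of the respiratory chain and counted after values had been seen, 18 were below and none above, among them the pseudogene Ndufs5-ps and Uqcrq at 28.1, 26.7, 22.5 and 25.1 against 103.

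Genes of chromosomes 6, 8 and 11 were lower as a whole. Over genes at 5 FPKM or more in all 5 libraries, the median difference to mES was -0.57 on chromosome 6 (320 genes), -0.62 on chromosome 8 (441) and -0.35 on chromosome 11 (644), and between -0.16 and 0.16 on the other 16 autosomes. On these 3 chromosomes the medians of single late libraries were all lower than on any other autosome, at -0.64 to -0.49, -0.63 to -0.54 and -0.39 to -0.32. These chromosomes held 17.2% of the compared genes and 36.3% of the missing ones (283), and 10.4% of their genes were below mES against 3.78% elsewhere. MEF, whose other autosomes had medians of -0.63 to -0.26, also lay lowest on these chromosomes (-0.93 and -1.04, -0.93 and -0.97, -0.75 and -0.85 in the 2 libraries). Since every comparison uses the same mES library, these values cannot be told apart from a property of it, and copy number was not measured. With each chromosome's median removed, an alternative chosen after seeing the data, 578 genes were below, 547 of them among the 779, and 1908 were above. The cell cycle list then had 1 gene below in place of 7, the glycolysis list 1 in place of 3 and the respiratory genes 14 in place of 18, and Zfp42, Tex19.1, Lama1, Hand1, Tead4, Jund and Calr were no longer members. Once the trend with transcript length and GC content was removed, 10 of the respiratory genes were below. Missing genes had shorter transcripts (median 2074 bases) than those in excess (3865) or all compared genes (3157).

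**Figure D3:**
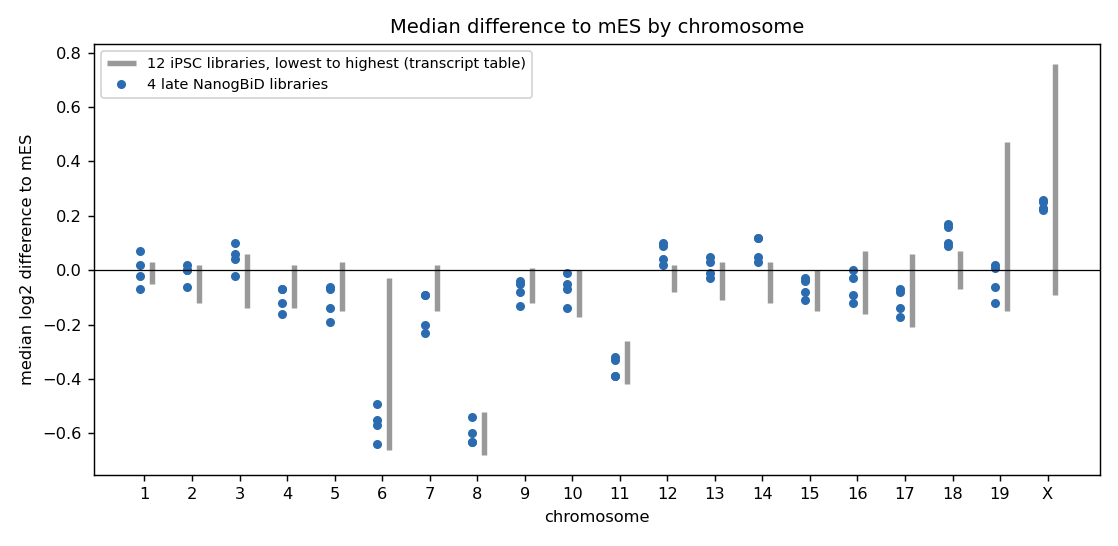
Median log2 difference to mES per chromosome; blue points are the 4 late NanogBiD libraries (genes at 5 FPKM or more) and grey bars span the 12 iPSC libraries of the transcript table, each against the mES column of its own table. Chromosomes 6, 8 and 11 lie under 0 in all 4 late libraries, with medians of -0.57, -0.62 and -0.35.

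What was in excess was split by the level in MEF. Of the 1707 genes above mES, 950 were also at least 2-fold higher in MEF than in mES. In 262 of these the late level was at least 2-fold under MEF, in 591 it was within 2-fold of MEF and in 97 at least 2-fold over it, among them Zic1, Fabp7, Sox11, Crabp2 and Penk. The other 757 genes were acquired, that is, MEF was not 2-fold above mES. The median weakest difference was 1.53 (log2), 146 genes were over 8-fold above mES in all 4 libraries, 468 were over 4-fold above (2.96% of those compared), and 234 were listed at 0 in mES. Of 1067 genes that MEF expressed at 4 or more times the mES level, a set that again rests on the same mES library, 540 (50.6%) were above mES and none was below.

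Beside collagens, Cdkn1c and Igf2, the genes with the largest weakest difference above mES were a mixed set. Crabp2, a binding protein for retinoic acid, was at 216, 298, 124 and 149 FPKM against 0.689 in mES, above both MEF libraries (26.8 and 14.1). Ccnd2, a D-type cyclin, was at 95.2, 119, 47.7 and 72.2 against 0.195, under both MEF libraries (132 and 188). Penk, a neuropeptide precursor, was at 103, 76.9, 43.3 and 48.9 against 0.236, and Serpina3n, a protease inhibitor, at 86.7, 107, 30.5 and 54.8, was listed at 0 in mES. These 4 genes were lower in the D12 libraries than in those of D10, which for none of them passed the test below. Nrep, Dpysl3 (both of growing neurites) and the growth factor Ptn completed the set.

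The fibroblast program was reduced but still present. Of 42 fibroblast and mesenchymal genes 30 were above mES and none below, with a list median of 2.49 (log2) in the late cells and 5.74 in MEF. Col1a1, a chain of the main fibrillar collagen (chr11:94936224-94953042), was at 192, 157, 104 and 170 FPKM, against 0.662 in mES and 3700 and 3344 in MEF. The log2 difference of the late mean was 6.52 to mES (5.98 to 6.86) and -4.52 to MEF. Col3a1 (115, 92.5, 61.0 and 98.4) was listed at 0 in mES, and Postn, a matrix protein of mesenchyme, at 117, 82.8, 48.3 and 49.4 was likewise, although it was not reduced by 2-fold from MEF (134 and 136). The intermediate filament gene Vim was at 791, 984, 645 and 925 FPKM against 54.7, which is between MEF (1895 and 2624) and mES. Thy1, a fibroblast surface marker, was near the limit at 12.0, 9.25, 9.13 and 9.88 against 3.49. Fn1, Twist1, Mmp2, Timp1 and Pdgfrb were within 2-fold of mES in at least 1 library, although MEF expressed each of them highly. Of 15 smooth muscle contractile genes 7 were above. Acta2 had gone from 770 and 1153 FPKM in MEF to 8.06, 5.33, 7.63 and 4.59, with 0 listed in mES, and Tagln, which overlaps another member, stood at 10.8, 7.81, 10.4 and 6.55 against 0.174.

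Imprinted genes gave 15 of 32 above mES and 2 below. Cdkn1c, a cell cycle inhibitor expressed from the maternal allele (chr7:143458339-143461059), had the largest weakest difference of all protein-coding genes in excess. The log2 difference to mES was 7.66 (7.42 to 7.78). Cdkn1c was at 269, 286, 223 and 284 FPKM against 0.310 in mES, and all 4 late libraries exceeded both MEF libraries (80.8 in the higher one). Igf2, the paternally expressed growth factor (chr7:142650768-142666816), was at 183, 129, 135 and 137 against 0.635, under MEF (2004 and 804). Its neighbour H19, a maternally expressed noncoding RNA that overlaps another member, was at 829, 564, 587 and 457 against 7.98. Nnat (58.3, 73.0, 79.8 and 104 against 1.40), Grb10 (174, 208, 87.0 and 123 against 8.71), Ndn, Dlk1 and Peg3 were also above. Meg3 and Rian, noncoding RNAs of the Dlk1 region, were no members, and Mirg from the same region was below (1.04 to 1.35 against 4.03). Allelic expression was not measured.

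Neural genes were the list with the largest share above mES. Of 19 neural genes 17 were above mES and none below, with a median of 3.41 (log2) in the late cells and 0.00 in MEF. Zic1, a zinc finger factor of the dorsal neural tube (chr9:91358058-91365768), was at 47.4, 84.4, 68.7 and 90.3 FPKM against 0.195, a log2 difference of 5.91 (5.34 to 6.26); its row overlaps another member. Sox11, a factor of immature neurons, was at 65.6, 105, 76.7 and 134 against 1.23. Fabp7, a marker of radial glia, was at 76.0, 111, 60.1 and 74.9 and was listed at 0 in mES. Hes5, an effector of Notch signalling in neural progenitors, was at 44.3, 70.1, 23.7 and 21.5 against 0.0689. Tubb3, the neuronal tubulin, was at 191, 308, 322 and 448 FPKM against 18.2, a log2 difference of 3.99 (3.32 to 4.55). For Zic1, Sox11 and Tubb3 replicate 2 was above replicate 1 at both days, the reverse of Gdf3, Upp1, Trap1a and Cdh1.

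The same held in lists drawn up after values had been seen, which are no independent evidence. Of 27 proneural and Notch pathway genes 20 were above and none below, with Insm1, a factor of newborn neurons (chr2:146221997-146225020), at 48.4, 52.5, 54.4 and 52.2 FPKM against 0.387 and the ligand Dll1 at 26.5, 38.0, 31.6 and 42.3 against 0.679. Of 38 neuron genes 25 were above and Nefh was below. Of 34 neural tube patterning factors 22 were above, including Pax3, Msx3 and Olig3, which mark dorsal progenitors, and Pax6, Lhx1 and Lhx5. The ventral factor Nkx6-1 (14, 12.9, 6.66 and 10.1 FPKM against 0.0381), En1 of the midbrain and hindbrain, and Pax2 were above as well. Pax3 was at 15.5, 21.9, 13.8 and 20.2 FPKM against 0.0178. Otx2, a factor of forebrain and midbrain, was at 0.488 to 2.24 FPKM against 1.49 in mES, while the ventral factors Nkx2-2 and Olig2 were listed at 0 and under 1 FPKM. Lhx2, En2 and Nkx6-2 were below mES. Of 18 glia and neural crest genes 10 were above, and Sox10, which defines neural crest, was not (0.869 to 1.57 against 0.178).

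Of 36 Hox genes compared, 22 were above mES and 5 below. Those above ran from Hoxb1 and Hoxa2 at the anterior end to Hoxa9, Hoxb9 and Hoxc9, while Hoxa10, Hoxa11, Hoxa13, Hoxc10 and Hoxd13 were no members. Hoxb9 (chr11:96271330-96276595) was at 52.5, 112, 109 and 160 FPKM against 0.969 in mES and 26.1 and 26.2 in MEF. Hoxb8 (22.3, 40.2, 52.1 and 67.9) and Hoxb5 (7.96, 14.4, 20.6 and 27.4) were listed at 0 in mES, and Hoxb6 was at 15.8, 21.4, 26.4 and 34.5 against 0.0406; Hoxb5 and Hoxb6 overlap other members. These 4 lay above MEF in all late libraries. Those below mES were Hoxc12, Hoxc13, Hoxb13, Hoxc11 and Hoxd9. Hoxc12 was listed at 0 in 3 of the 4 late libraries and at 0.361 in the other, against 7.02 in mES, and Hoxc13 was at 0.498, 0.223, 1.35 and 0.707 against 8.46. The median of the Hox list was 2.13 (log2) in the late cells and 1.18 in MEF.

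**Figure D4:**
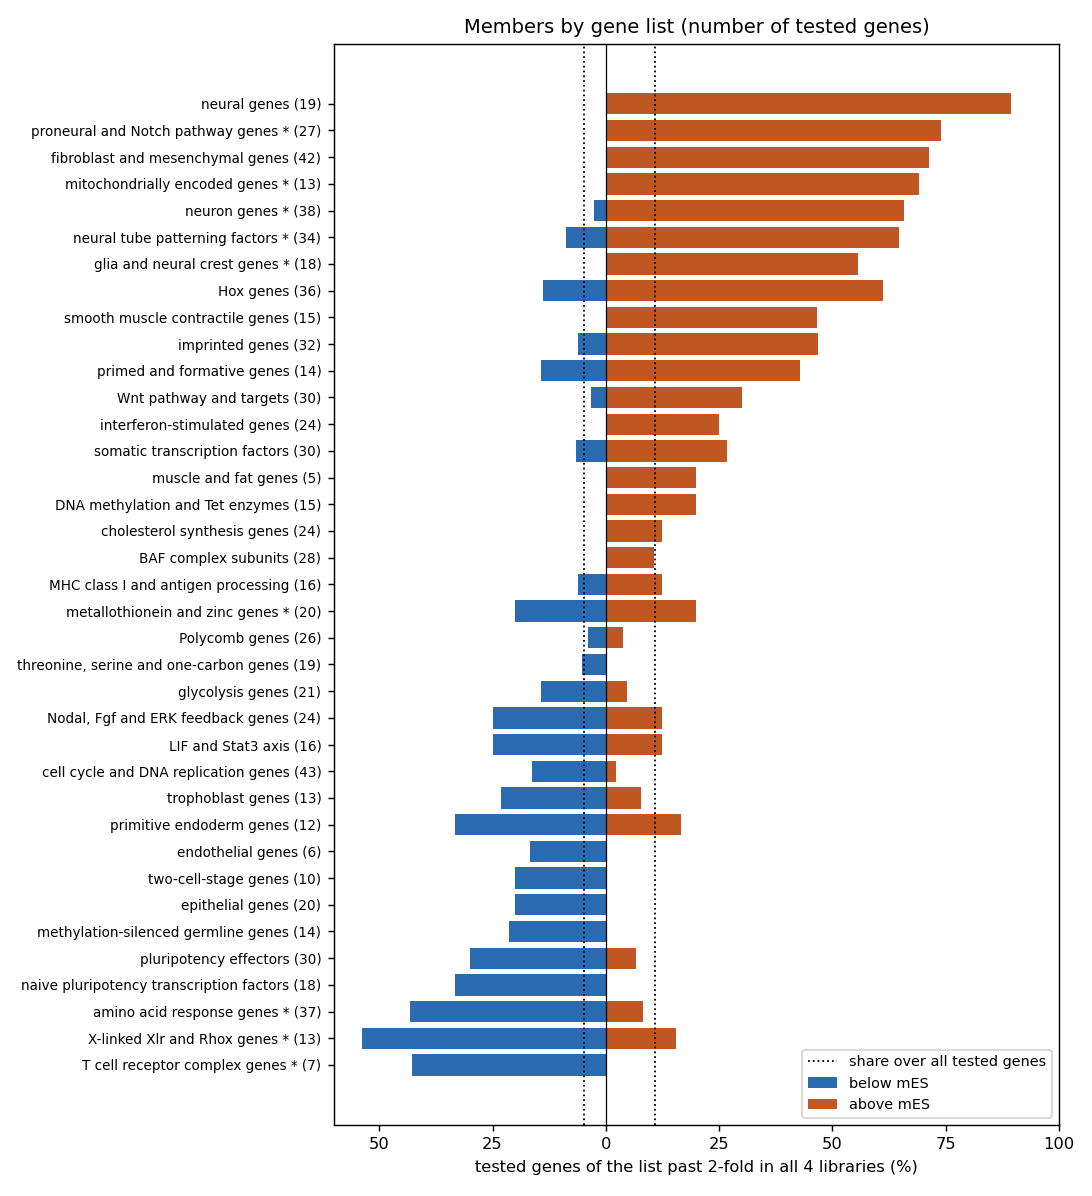
Share of the compared genes of each list that lay below mES (blue, left) or above it (orange, right) in all 4 late libraries, with the number of compared genes in brackets and an asterisk for lists chosen after values had been seen. Dotted lines mark the share over all compared genes, 4.92% below and 10.8% above.

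Ligands, receptors and chromatin genes were spread more thinly. Over all compared genes 10.8% were above mES and 4.92% below. Of 30 Wnt pathway genes 9 were above, among them Wnt4 (12.2, 21.5, 12.4 and 18.8 FPKM against 0.342), the secreted inhibitor Sfrp2, Wnt5a, Wnt3 and Wnt8a, and Cdx1 alone was below. Of 30 somatic transcription factors 8 were above, including Id3 (100, 112, 65.0 and 47.7 against 7.88), an inhibitor of bHLH factors, the AP-1 subunit Jun (28.8 to 42.6 against 5.06) and the nuclear receptors Nr2f1 and Nr2f2, whereas Tead4 and Jund were below. Neither was below with chromosome medians removed, and Jund, at 97.2 to 107 FPKM, stood at 216 in mES in this table but at 82.3 in the transcript table. Of 28 BAF subunits Bcl7a, Smarca2 and Arid2 were above, a share near that of all compared genes. Bcl7a was at 17.0 to 26.8 against 4.39. Of 15 genes of DNA methylation 3 were above, Dnmt3a and Tet3 among them, and Bmi1 above and Epop below among 26 Polycomb genes. Of 24 cholesterol synthesis genes 3 were above, including Hsd17b7 and Hmgcs1, which is also near the share of all compared genes. Among 24 interferon-stimulated genes 6 were above (Ifi27, Isg15, Oasl2, Gbp2, Gbp7, Ifit1), Isg15 at 3.48, 2.06, 8.36 and 4.01 with 0 listed in mES. B2m, the light chain of MHC class I, was at 75 to 130 against 25.7, with H2-T22 also above and Calr below among 16 genes of that list.

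Families counted by the start of their symbols, also after values had been seen, added adhesion and guidance genes. Of 60 protocadherins 21 were above mES and none below, 14 of the 21 in the alpha cluster, whose members share their last exons and so may share reads; with the trends in transcript length and GC content removed 10 were above, and on the TPM scale 39. Of 19 Eph receptors and ephrins 7 were above, among them Epha3 and Efnb2, and of 28 semaphorins and plexins 10, among them Plxna2 and Sema3c, with Sema4f below. Of 362 genes named Zfp 42 were above and Zfp42 and Zfp775 below, a share near that of all compared genes.

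Genes encoded by mitochondrial DNA, a list chosen after values had been seen, were 9 of 13 above mES, while the nuclear respiratory genes were partly below. ND1 was at 1422, 1713, 1476 and 2021 FPKM against 547, and ND6 at 1018, 1064, 967 and 1313 against 244. COX1 was at 5366 to 6269 against 2930 and was no member. MEF stood at 1875 and 2714 for ND1. Xist, the RNA of the inactive X chromosome (chrX:103460373-103483233), was at 6.58, 9.80, 6.10 and 12.3 FPKM against 0.108 in mES, and the Y-linked Kdm5d at 3.43, 3.15, 2.82 and 4.29 against 0.0333. Both were also expressed in MEF, which came from embryos of both sexes. The Y-linked Ddx3y and Eif2s3y were no members. The median difference of X-linked genes was 0.21 (log2) over 211 genes.

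At the limit itself, Tomm5 (34.3, 29.0, 31.5 and 25.4 FPKM against 69.7) and Rpl13-ps6 were just inside below mES and Mir6946 and Gm35340 just outside. Above mES, Rnft2 (2.49, 3.42, 3.86 and 4.68 against 0.744) was just inside and Fzd10 (61.6, 111, 72.7 and 101 against 30.3) and Fam177a2 just outside.

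The change of the members between D10 and D12 was fitted across the time course, without mES. Since the rule required a 2-fold difference at both days, a gene that reached mES by D12 is no member, and the counts below describe the members and do not say whether the gap to mES narrowed. In the limma fit over 31 libraries and 16842 genes, 210 genes were higher at D12 (1.25%) and 22 lower (0.131%), by the limits of 2-fold and of 0.05 for the p-value adjusted after Benjamini and Hochberg. Of 610 missing genes in the fit 14 rose (2.30%) and none fell, and their median change was 0.10 (log2) against 0.02 for all genes. The fit held 42 of the 187 missing genes under 1 FPKM in every late library, which with 1 FPKM added could not fall 2-fold. Missing genes had median levels of 3.26 and 2.40 FPKM in the D10 libraries, which limits falls more widely. Members were also chosen from the same D10 and D12 libraries, so their shares and medians are no test against all genes. Of the 1707 genes in excess 41 rose (2.40%) and 7 fell (0.410%). These calls rest on the spread of all 16 groups. With D10 and D12 alone (2 against 2 libraries) limma called no gene at an adjusted p under 0.05 (smallest 0.120), while 1654 had an unadjusted p under 0.05.

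Missing genes that rose included Rpl10l, from 4.35 and 3.71 FPKM at D10 to 16 and 13.8 at D12 (log2 change 1.66, SE 0.17, limma adjusted p = 3.05e-06). The tight junction gene Ildr1 rose from 1.84 and 1.47 to 7.75 and 6.09 FPKM (log2 change 1.57, limma adjusted p = 4.24e-07), with 27.0 in mES. Trap1a, Slc39a4, Cox7a1 and 2210409E12Rik also rose. None of the 6 naive factors below mES was called, Esrrb with a log2 change of 0.69 (limma adjusted p = 0.271) and Klf4 with 0.35 (limma adjusted p = 0.839), nor was Mt1 (-0.22, limma adjusted p = 0.935).

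Of the 757 acquired genes 36 were higher at D12 (4.76%) and 5 were lower (0.661%), beside 1.25% and 0.131% of all genes. A gene that fell to mES by D12 could not be in this class, so the shares are no test against all genes. Of the 262 genes above mES but at least 2-fold under MEF none was called and the median change was -0.18 (log2). Those that rose included neuronal genes. Dcx, a microtubule protein of migrating neurons, went from 11.9 and 23.8 to 33.4 and 53.2 FPKM (log2 change 1.27, limma adjusted p = 0.0102). Snap25 of the synaptic vesicle machinery went from 2.23 and 3.69 to 6.73 and 7.37 (1.05, limma adjusted p = 0.00212), and Skor1, a factor of dorsal spinal interneurons, from 1.44 and 3.44 to 9.48 and 8.88 (1.63, limma adjusted p = 1.55e-05). Zcchc12 had the largest rise of the acquired genes, from 1.65 and 2.74 to 9.08 and 10.5 (1.77, limma adjusted p = 2.10e-05). Those that fell included genes of the early embryo and of progenitors: Wnt8a, a ligand of the gastrula, from 14.5 and 10.6 to 1.80 and 3.53 FPKM (-1.91, limma adjusted p = 0.000275), Hoxb1 from 4.83 and 9.96 to 2.82 and 2.58 (-1.11, limma adjusted p = 0.00770), Fgfbp3, Cbln2, and the proneural factor Neurog1 from 14.6 and 21.8 to 7.24 and 9.55 (-1.02, limma adjusted p = 0.0235). Outside the acquired genes, Mab21l2 rose from 1.79 and 6.01 to 17.6 and 23.8 (2.28, SE 0.42, limma adjusted p = 0.00202) and Fabp5 fell. Dcx, Skor1, Snap25, Ildr1, Cbln2 and Neurog1 were picked from the calls after their values had been seen.

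Along the time course the groups parted at different days. The partly expressed missing genes left the MEF level late. Their median was -2.12 and -2.17 (log2, difference to mES) in MEF, -2.07 and -2.18 at D7, -1.66 in the D8 library, -1.56 and -1.80 at D10 and -1.38 and -1.72 at D12. For 51 missing genes every late library was 2-fold above both D7 libraries, among them Cdh1, Esrrb, Zfp42, Lefty2 and Fgf4. For 11 the order was reversed, including Mt1, Etv4, Cdx1, Apela and Pou2f3. Cdx1 was at 35.3 and 29.6 FPKM at D7 and 33.5 at D8, before its late level of 4.04 to 10.9, and Mt1 had been at 206 to 271 FPKM from D3 to D5. The medium was changed at about D7, so day and medium cannot be told apart here.

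Of the 757 acquired genes 190 were at least 2-fold over MEF from D5 or an earlier day on, 37 from D7 on and 338 from D8 or later, while 192 did not reach this in both D12 libraries. Scrt2, Nhlh2, Hes5, Pax3 and Dcx belonged to the 120 genes that passed at D8, and Lhx1, Lhx5, Gsx2 and Hoxd3 to the 152 that passed at D10. Insm1 passed at D1 and Dll1 and Tubb3 at D3. The neural list had a median of 1.16 and 1.33 (log2, difference to mES) at D7, 2.27 at D8, 3.19 and 3.90 at D10 and 3.40 and 3.76 at D12. Over the same days the fibroblast list had 3.38 and 3.12, 3.20, 2.75 and 2.64, and 2.08 and 2.58, and the naive factor list -3.57 and -4.05, -1.76, -1.16 and -1.85, and -0.72 and -1.27.

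**Figure D5:**
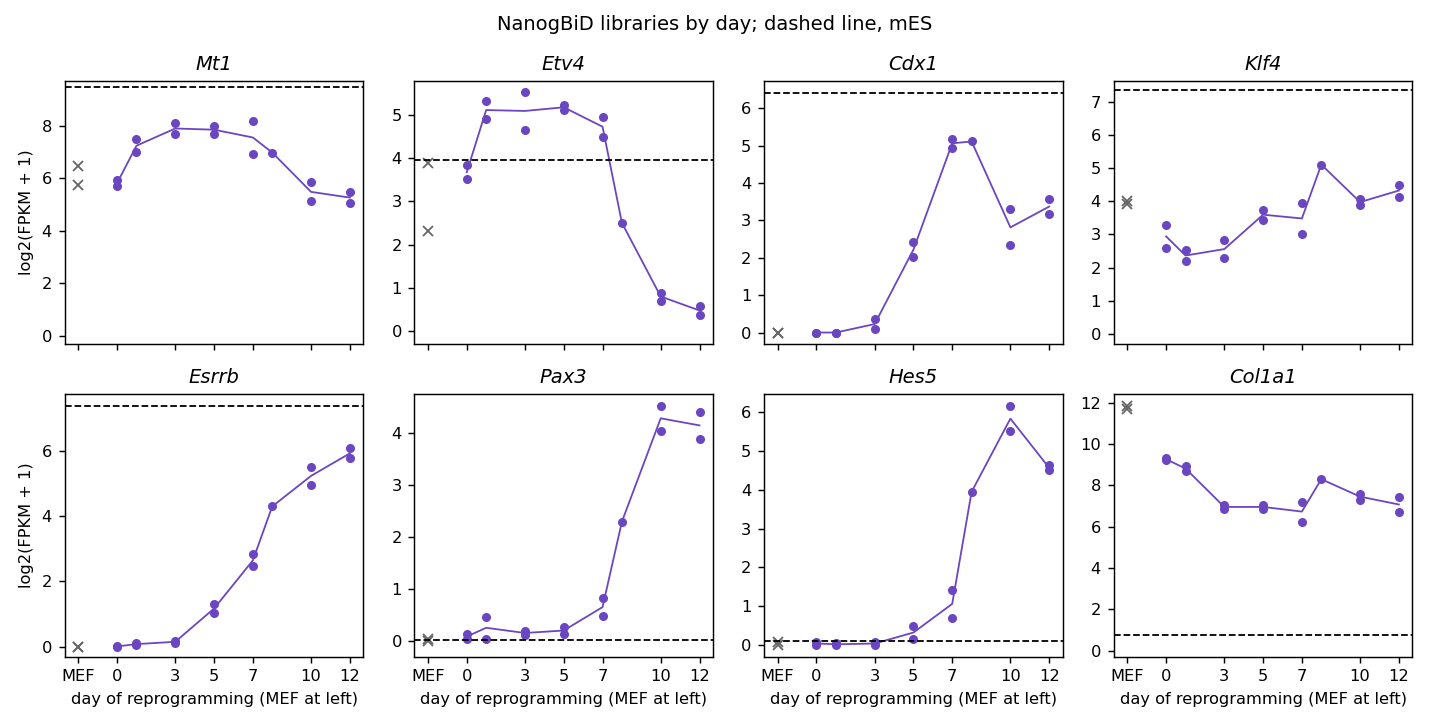
Levels of 8 genes as log2(FPKM + 1) in the NanogBiD libraries by day; points are libraries, lines join the means of each day, crosses at the left are MEF and dashed lines the mES library. Mt1, Etv4 and Cdx1 are lower at D10 and D12 than at D7, Klf4 ends near its MEF level, Esrrb is highest at D12 but under mES, Pax3 and Hes5 lie over their D7 levels from D8 on and Col1a1 stays far above mES.

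For context, the NanogWT libraries of D10 and D12, set against the same mES library by the same rule, gave 2940 genes below (18.4%) and 2858 above (17.9%) of 16004 compared. These libraries were 2.02 to 3.47 times as deep as the first NanogBiD D10 library, and no test of the difference is given since both comparisons share the mES library. Their list medians over D10 and D12 were -3.55 for the naive factors, 5.07 for the fibroblast genes and 2.38 for the neural genes (log2, against mES), beside -1.29, 2.49 and 3.41 with NanogBiD. Klf4 was as low with NanogWT (11.4 to 13.5 FPKM) as with NanogBiD, and Mt2 was higher (135 to 225 FPKM).

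In the 12 iPSC libraries, which were quantified in a separate table and compared with mES only within it, the median of the genes in excess was near mES, with exceptions among fibroblast genes. The median difference to mES of the genes in excess was -0.02 to 0.14 in 11 of them and 0.31 in NanogBiD iPSC1 replicate 9. That of the missing genes was -0.74 to -0.35. Neural genes had list medians of 0.00 to 0.28 and naive factors of 0.08 to 0.62. The fibroblast list had 3.33 in NanogBiD iPSC1 replicate 9, above the late cells' 2.08 to 2.75, and 1.97 in NanogWT iPSC1 replicate 3. Col1a1 was at 931 FPKM in the former, against 104 to 192 in the late libraries and 0.736 in the mES column of that table. Klf4 was at 88.4 to 183 FPKM in the 6 NanogBiD iPSC libraries, against 133 in the mES column of that table, and Esrrb at 118 to 197 against 157. Genes under mES in these lines included Mt2 (232 to 700 FPKM against 1417), Bhmt (1.07 to 2.87 against 19.9), Cyp2s1 (2.02 to 4.48 against 18.2) and Slc7a5 (87.8 to 105 against 212). The mitochondrial ND1 (1876 to 4193 against 397) was above. The medians of chromosomes 8 and 11 against mES were -0.68 to -0.52 and -0.42 to -0.26 in the iPSC libraries, and that of chromosome 6 was -0.66 to -0.55 in all but NanogWT iPSC2 replicate 5, where it was -0.03. The mES sample itself, quantified in both tables, correlated with itself at r = 0.914 over 15258 genes, and 1525 genes were 2-fold apart between the tables. Restricted to genes whose mES level lay within 2-fold between the tables, an alternative chosen after seeing the data, 640 of the 779 missing genes and 1589 of the 1707 in excess remained.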

How the data were processed

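RNA-seq of polyadenylated RNA was used as deposited. The authors trimmed reads with Trim Galore 0.6.4, aligned them with HISAT2 2.2.1 to mm10 and obtained FPKM per gene and per transcript with StringTie 2.2.1; annotation, strand setting and the handling of multiply mapped reads are not given in the sources used here. The study's GFOLD analysis needs mapped reads and was not repeated.

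FPKM values were put on the log2(FPKM + 1) scale. A gene was compared when it reached 1 FPKM in at least 1 of the 5 libraries, and was a member when all 4 late libraries differed from mES by at least 1 on that scale in 1 direction. The difference between D12 and D10 was fitted in limma 3.58.1 (R 4.3.3) with a mean-variance trend over 31 libraries in 16 groups, on genes at 1 FPKM or more in at least 2 libraries, with Benjamini-Hochberg adjustment (two-sided, adjusted p under 0.05 and 2-fold). On simulated data for this contrast, 194 of 200 changed genes (log2 change of 2) were recovered among 16842, with 6 others called. The simulated noise was independent between libraries with 1 spread per gene, as the fit assumes. The simulation therefore checks the code and does not say how reliable the calls on the real libraries are. Other steps ran in Python 3.11.15 (scipy 1.17.1, pandas 2.3.3, numpy 2.4.6), with matplotlib 3.10.9 for plots. Depth is relative, from the spacing of low FPKM values, since read totals were not used here. Transcripts were summed per gene for the iPSC.

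Named genes were the 15 protein-coding members with the largest weakest difference in each direction without annotated overlap, up to 4 members per direction of each list, the 2 genes at either side of each limit, up to 5 members per direction with the largest called D12 difference, and the vector factors; other genes named with values were chosen after seeing them. The members and lists were chosen with earlier results of these data known, and lists and alternatives added later are marked. The alternatives were another pseudocount (0.1 FPKM), TPM and quantile scaling, a floor of 5 FPKM, a 4-fold limit, the mean of the 4 libraries, each day alone, removal of length, GC and chromosome trends, and leaving out each library. Gene positions and promoters came from RefSeq for GRCm38.p6, the assembly of mm10. Some genes of the lists are not reported here.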

Additional observations from a re-analysis of the deposited data

Results flagged for a closer look

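Among 12 sets of iPSC values, each set holding 6 libraries of 1 combination, 3 had a library far from the other 5 by Dixon's ratio. This ratio is the gap to the nearest library over the whole range, taken at its 95% limit. For independent values chance alone flags about 1 in 20 sets. Here each set pooled iPSC1 and iPSC2 lines, whose labels give different passages. The sets also share libraries and genes, so the 1 in 20 is only a rough guide. The median log2 difference to mES of the genes in excess was 0.31 in NanogBiD iPSC1 replicate 9 and -0.02 to 0.04 in the other NanogBiD iPSC libraries. That of the missing genes was -0.35 in NanogWT iPSC2 replicate 5 and -0.70 to -0.58 in the other NanogWT iPSC libraries. The median of chromosome 6 was -0.03 in that same library and -0.66 to -0.55 in the others.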

How the results depend on the processing

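The numbers of genes below and above mES (779 and 1707) moved by over 1.5 times at a 4-fold limit (74 and 468), with the mean of the 4 libraries in place of all 4 (1478 and 2626), with D10 alone (1322 below, 2106 above; D12 alone gave 942 and 2255), in limma with the lone mES library, which is then assumed to vary like the other groups (1394 below), with a pseudocount of 0.1 (2929 above) and on the TPM scale (2840 above). Of the mES-high genes, those 4-fold over MEF (386 below), 63 were below at 4-fold, 751 with the pseudocount of 0.1, 639 with the mean and 600 with D10 alone (409 with D12 alone), and of the MEF-high genes (540) 240 were above at 4-fold, 1220 with the pseudocount of 0.1 and 990 on the TPM scale. Leaving out a library gave 820 to 1089 genes below, 1765 to 1941 above, 390 to 523 mES-high and 544 to 609 MEF-high genes. The 232 calls of D12 against D10 (62 members) became 129 (13) with the pseudocount of 0.1, 622 (146) without a fold limit, 0 (0) with D10 and D12 alone and 222 to 320 (52 to 80) without a library. With the replicate block the fit gave 242 calls (65 members); the labels say of no number that it marks a shared culture, and with 2 pairs the deviations of replicates 1 and 2 correlated at 0.390 between days. No count changed by over 1.5 times with quantile scaling (1058 and 1266), protein-coding genes (623 and 1507), removal of length and GC trends (585 and 1532), identical rows counted once (762 and 1691) or chromosome medians removed (578 and 1908). The causes of these shifts were not tested. The single mES library limits every comparison with it, and read depth is known only in relative terms.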
